A study of Homo sapiens with 32 samples.

Results

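Chemokines are small secreted proteins that draw leukocytes along a gradient, and the genes CXCL1, CXCL2, CXCL3, CXCL5, IL8, CXCL10, CXCL16, CCL2 and CCL20 were followed here through 8 groups of expression arrays of human liver tumour cells. The genes were taken by the symbol that the deposited probe table gives each probe, and IL8 is the table's symbol for the gene now named CXCL8. The 9 genes had 10 of the 24526 probes on the array, since CXCL16 had an extra probe, and all 9 were among the 12973 genes tested. Total RNA came from Huh7, labelled an HCC cell line (hepatocellular carcinoma), and from HepG2, labelled an HB cell line (hepatoblastoma). In the SAHA subset each line carried SAHA (vorinostat, an inhibitor of several histone deacetylases) or DMSO, its solvent, and in the HDAC2 siRNA subset each line carried siRNA against HDAC2, a class I histone deacetylase, or scrambled siRNA. Each of the 8 groups had 4 arrays. The labels read here state no dose, time or siRNA sequence and do not say whether the 4 arrays came from separate cultures, so p-values measure the spread between arrays, which may be technical.

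Signals are given on the log2 scale after background correction and normalization, and a probe counts as detected on an array where its deposited detection p-value was under 0.05. Between 48.3% and 54.9% of all probes were detected on an array, and arrays of 1 group correlated at 0.979 to 0.996 over the 12973 genes tested. The HDAC2 probe bore out the siRNA labels, with 9.87% of the scrambled siRNA signal left in Huh7 and 12.1% in HepG2. A gene is called where its limma p, adjusted by Benjamini-Hochberg over the 12973 genes, was under 0.05. The number of arrays limits the precision, and because a culture is measured as a whole, fewer cells that express a gene and less RNA per cell cannot be told apart. Hepatocyte and liver tumour markers fitted the labelled tissue, with 16 to 18 of 18 detected on all 4 arrays of each group. Of 15 leukocyte markers, 2 to 7 were detected on all 4 arrays of a group and 5 to 8 on none. CD68 was detected on all 32 arrays, and PTPRC, which encodes the pan-leukocyte protein CD45, on 1.

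The CXC chemokines CXCL1, CXCL2, CXCL3, CXCL5 and IL8 carry the Glu-Leu-Arg (ELR) motif and attract neutrophils through the receptors CXCR1 and CXCR2. CXCL10 attracts activated T cells through CXCR3 and is induced by interferon, CXCL16 is made as a transmembrane protein that binds CXCR6 and can be shed, CCL2 attracts monocytes through CCR2, and CCL20 attracts cells that carry CCR6. Several of these genes are textbook targets of the transcription factor NF-kappaB, which is activated by tumour necrosis factor and interleukin-1, and in liver they are known as products of hepatocytes and other cells in inflammation.

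The ELR genes lie together on chromosome 4: IL8, CXCL1, CXCL5, CXCL3 and CXCL2 span 358.6 kb in RefSeq's GRCh38.p14 annotation, and CXCL10 lies 1922 kb further along. CXCL16 and CCL2 are on chromosome 17 and CCL20 on chromosome 2. RefSeq promoter windows, from 250 bases before to 50 after the start of a gene, were available for 7 of the 9 genes and were searched on both strands for GGAATTTCC (GGAAATTCC in the reverse orientation), a form of the NF-kappaB site chosen because promoters of this family are known to carry it. The word stood in 162 of 35116 such windows (0.461%) and in 6 of the 7 of these genes. The stretches around it are shown, since these genes are the ones whose signals are described together, with the word in capitals and each read 5′ to 3′ along the coding strand of its gene.
CXCL1, chr4:73869275-73869363, plus strand: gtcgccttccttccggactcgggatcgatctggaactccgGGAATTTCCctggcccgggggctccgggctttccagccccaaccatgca
CXCL2, chr4:74099224-74099312, minus strand: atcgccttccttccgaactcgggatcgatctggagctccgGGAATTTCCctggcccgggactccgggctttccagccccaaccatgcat
CXCL3, chr4:74038719-74038807, minus strand: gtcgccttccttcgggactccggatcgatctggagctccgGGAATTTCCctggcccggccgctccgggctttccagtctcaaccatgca
CXCL5, chr4:73998719-73998807, minus strand: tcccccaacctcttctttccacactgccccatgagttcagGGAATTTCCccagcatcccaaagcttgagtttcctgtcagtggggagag
IL8, chr4:73740438-73740526, plus strand: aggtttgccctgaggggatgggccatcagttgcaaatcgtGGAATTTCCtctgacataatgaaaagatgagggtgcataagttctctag
CXCL10, chr4:76023625-76023713, minus strand: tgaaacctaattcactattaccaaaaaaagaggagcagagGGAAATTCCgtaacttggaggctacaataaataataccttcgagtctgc
In the ELR genes the word ran in the direction of the gene, and its first base lay 77 to 91 bases before the start. In CXCL10 it ran the other way, 176 to 168 bases before the start, and the window of CCL20 held no match. CXCL1, CXCL2 and CXCL3 are close copies of one another, so a probe for 1 of them could also pick up another, which was not tested. A match is a description of the letters and not of binding. Since the word was chosen for this family, its share among these genes is no test of enrichment. Other forms of the site were not searched.

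CXCL5 had the widest range of group means among the 9 genes, 6.98 on the log2 scale. On the 4 Huh7 DMSO arrays its log2 signals were 9.11, 9.05, 9.05 and 9.14, and on the Huh7 SAHA arrays 6.15, 6.31, 6.03 and 5.95. On the Huh7 scrambled siRNA arrays they were 11.78, 11.87, 11.63 and 11.37, and on the Huh7 HDAC2 siRNA arrays 7.75, 7.67, 7.66 and 7.57. All 16 Huh7 arrays detected CXCL5 and neither treated group overlapped its control. With SAHA it fell by 2.98 (SE 0.11, adjusted p = 1.03e-20), which left 12.7% of the DMSO signal. With HDAC2 siRNA it fell by 4.00 (SE 0.11, adjusted p = 1.495e-22), which left 6.26% of the scrambled siRNA signal and was the largest fall of the 12973 genes in that comparison and setting. The fall with SAHA ranged from -3.31 to -1.85 over the alternative settings. No HepG2 array of any group detected it. The 4 Huh7 groups stood in the order SAHA, HDAC2 siRNA, DMSO, scrambled siRNA, with no overlap between neighbours.

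CXCL1 kept that same order of the 4 Huh7 groups. Its Huh7 log2 signals were 7.36, 7.73, 7.83 and 7.65 with DMSO and 6.22, 6.02, 6.33 and 6.01 with SAHA. They were 8.63, 8.43, 8.32 and 8.47 with scrambled siRNA and 6.73, 6.84, 6.80 and 7.10 with HDAC2 siRNA. Here too no neighbouring groups overlapped. CXCL1 fell by 1.50 with SAHA (SE 0.14, adjusted p = 1.298e-10) and fell by 1.59 with HDAC2 siRNA (SE 0.14, adjusted p = 1.103e-10), to 35.4% and 33.1% of the respective control. Over the alternative settings these differences ranged from -1.74 to -0.77 and from -1.74 to -1.02. CXCL1 was detected on no HepG2 array.

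CXCL2 was nearer the detection limit. In Huh7 its log2 signals were 5.80, 5.92, 6.04 and 5.55 with DMSO, against 5.36, 4.86, 5.50 and 4.77 with SAHA, where 2 of the 4 arrays detected it. They were 7.92, 7.73, 7.75 and 7.84 with scrambled siRNA and 6.54, 6.64, 6.54 and 6.60 with HDAC2 siRNA. The fall was 0.71 with SAHA (SE 0.13, adjusted p = 1.78e-05) and 1.23 with HDAC2 siRNA (SE 0.13, adjusted p = 2.648e-09), and the arrays of the groups compared did not overlap. Over the alternative settings they ranged from -0.997 to -0.26 and from -1.38 to -0.69. Unlike CXCL5 and CXCL1, CXCL2 had a higher mean with HDAC2 siRNA (6.58) than with DMSO (5.83), groups that belong to different subsets. No HepG2 array detected CXCL2.

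CXCL3 had no usable level. Its probe was detected on 8 of 32 arrays, in no group on all 4, and its group means lay between 4.97 and 5.37. Arrays of 1 group differed by more than the groups did: the Huh7 DMSO signals were 6.27, 4.72, 5.43 and 5.06, the widest set among its 8 groups. CXCL3 was not called in any of the 10 comparisons. For SAHA in Huh7 its 95% interval ran from -1.0 to 0.19 and for HDAC2 siRNA in Huh7 from -0.72 to 0.47, so the first holds a fall of the size seen for CXCL2 with SAHA.

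IL8, a potent neutrophil attractant, was detected on all 32 arrays and moved in opposite directions in the 2 lines. In Huh7 its log2 signals were 11.02, 11.30, 11.31 and 11.22 with DMSO and 9.81, 9.80, 9.66 and 9.68 with SAHA. In HepG2 they were 7.80, 7.84, 7.60 and 7.75 with DMSO and 10.78, 10.76, 10.76 and 10.43 with SAHA. The lines thus started far apart and ended closer together, with the HepG2 SAHA arrays above the Huh7 SAHA arrays. SAHA lowered the signal in Huh7 by 1.48 (SE 0.14, adjusted p = 5.971e-11), to 35.9% of DMSO, and raised it in HepG2 by 2.93 (SE 0.14, adjusted p = 6.805e-18), 7.64-fold. The difference between these effects was itself called, at 4.41 (SE 0.19, adjusted p = 5.435e-18).

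The siRNA arrays showed the same opposition for IL8 with smaller sizes. In Huh7 its log2 signals were 12.68, 12.42, 12.42 and 12.42 with scrambled siRNA and 12.03, 11.84, 11.84 and 11.86 with HDAC2 siRNA. In HepG2 they were 8.08, 8.17, 7.96 and 7.88 with scrambled siRNA and 10.11, 9.71, 9.07 and 9.76 with HDAC2 siRNA. No array overlapped between treated and control groups. IL8 fell by 0.59 in Huh7 (SE 0.14, adjusted p = 0.0005552), to 66.3%, and rose by 1.64 in HepG2 (SE 0.14, adjusted p = 6.2e-11), 3.12-fold, the 29th largest rise of that comparison. The effects differed by 2.23 between the lines (SE 0.19, adjusted p = 2.083e-10). Over the 8 groups the mean rose from HepG2 DMSO through HepG2 scrambled siRNA, HepG2 HDAC2 siRNA, Huh7 SAHA, HepG2 SAHA, Huh7 DMSO and Huh7 HDAC2 siRNA to Huh7 scrambled siRNA, and of these neighbours HepG2 HDAC2 siRNA and Huh7 SAHA overlapped. The HepG2 controls at the low end did not overlap, yet their difference of 0.27 was not called (95% interval -0.0041 to 0.55, adjusted p = 0.1043).

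**Figure D1:**
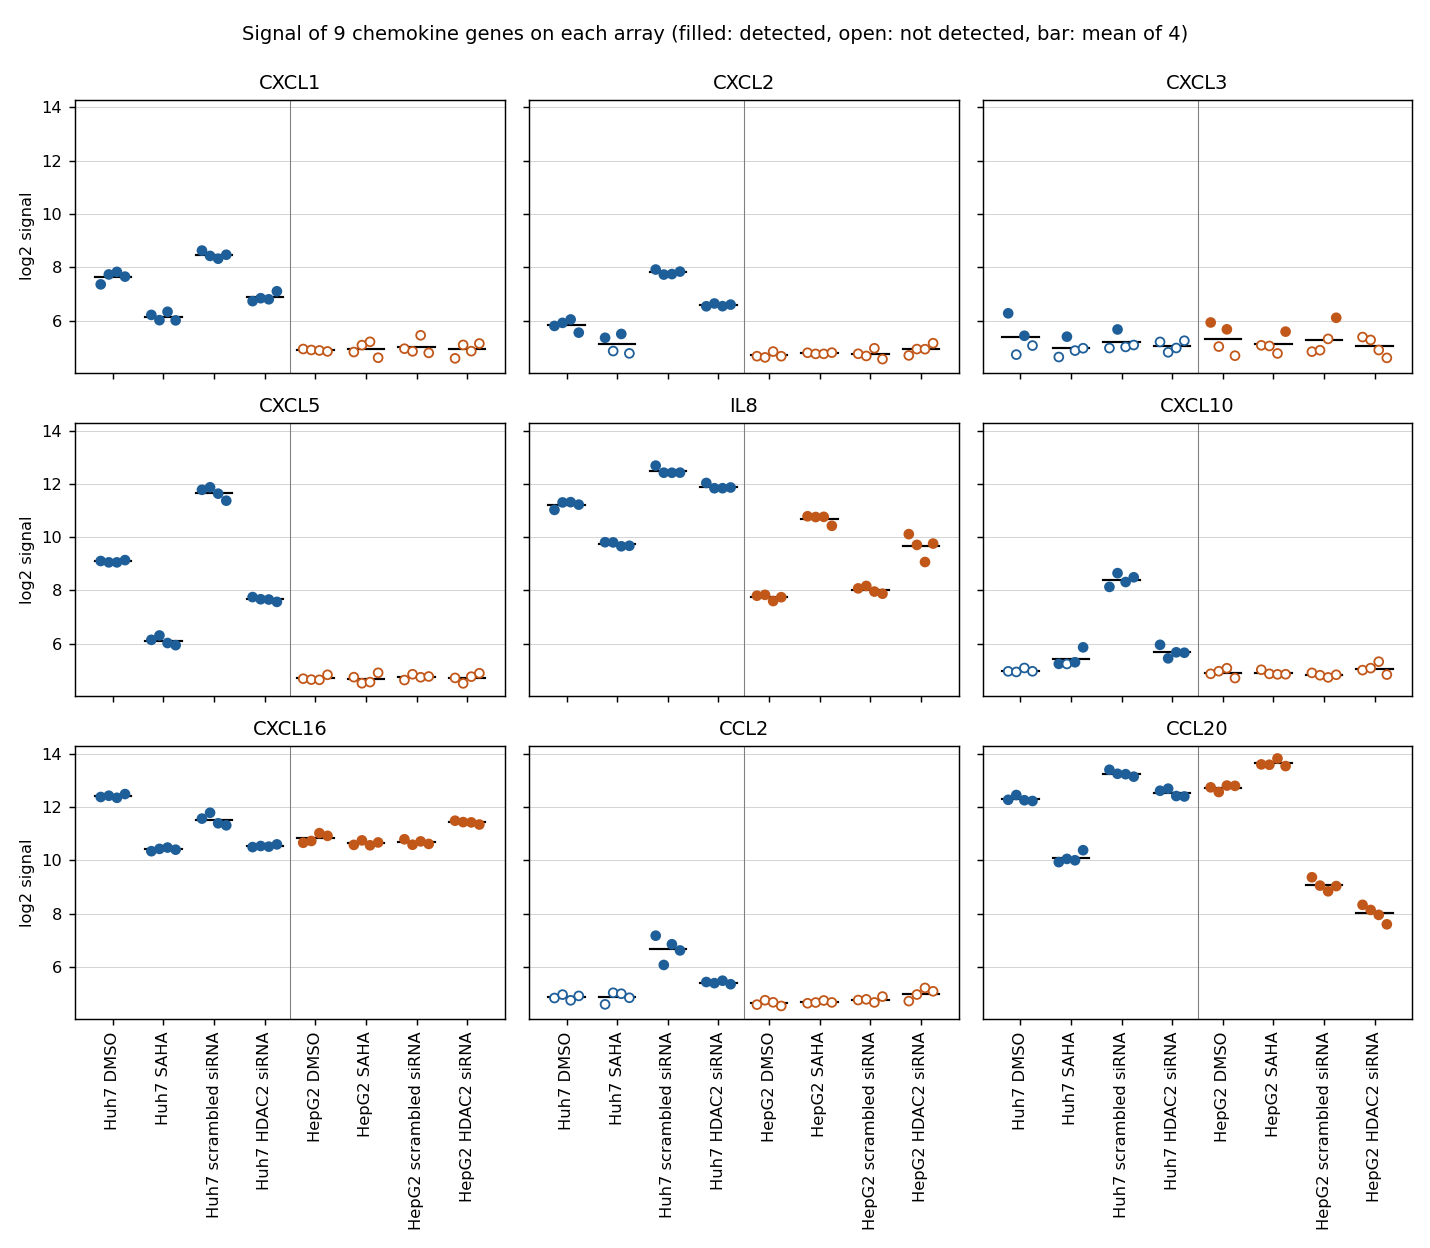
Log2 signal of the 9 chemokine genes on each of the 32 arrays, with 1 panel for each gene, the 8 groups along the horizontal axis (Huh7 in blue, HepG2 in orange), filled points for arrays that detected the probe, open points for those that did not, and a bar at the mean of 4. CXCL1, CXCL2, CXCL5, CXCL10 and CCL2 have only open points in HepG2, while IL8, CXCL16 and CCL20 are filled throughout, and IL8 is lower with SAHA in Huh7 and higher with SAHA in HepG2.

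CXCL10 was near background in most groups and stood out in Huh7 with scrambled siRNA. There its log2 signals were 8.13, 8.65, 8.32 and 8.49, against 5.96, 5.45, 5.68 and 5.66 with HDAC2 siRNA, and all 8 of these arrays detected it. It fell by 2.71 (SE 0.13, adjusted p = 1.043e-16), which left 15.3% of the scrambled siRNA signal, and the difference ranged from -3.19 to -1.46 over the alternative settings. With SAHA in Huh7 the signals were 5.25, 5.24, 5.31 and 5.87, of which 3 were detected, and with DMSO 4.97, 4.94, 5.09 and 4.97, none of them detected. CXCL10 was called 0.42 higher with SAHA (SE 0.13, adjusted p = 0.005517). The call was lost without the array at 5.87 (0.27, adjusted p = 0.05545), without background correction (0.16, adjusted p = 0.0521) and with undetected signals raised to the lowest detected one (0.09, adjusted p = 0.5228). No HepG2 array detected CXCL10.

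CXCL16 was measured by 1 of its 2 probes. The probe ILMN_1728478 was detected on all 32 arrays, and ILMN_1672278 on none, with group means of 4.82 to 5.03, so the latter was not tested. In Huh7 the log2 signals were 12.38, 12.42, 12.35 and 12.49 with DMSO and 10.34, 10.43, 10.48 and 10.40 with SAHA. CXCL16 fell by 2.00 (SE 0.09, adjusted p = 5.652e-18), to 25.1% of DMSO. With scrambled siRNA they were 11.56, 11.78, 11.39 and 11.31 and with HDAC2 siRNA 10.50, 10.54, 10.51 and 10.60. The fall was 0.98 (SE 0.09, adjusted p = 3.135e-10), and neither pair of Huh7 groups overlapped.

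In HepG2, CXCL16 rose with HDAC2 siRNA, from 10.79, 10.58, 10.71 and 10.61 with scrambled siRNA to 11.49, 11.43, 11.42 and 11.34. The groups did not overlap, and the rise was 0.75 (SE 0.09, adjusted p = 1.631e-07), 1.68-fold. With SAHA it was not called: the DMSO arrays gave 10.66, 10.72, 11.02 and 10.92 and the SAHA arrays 10.58, 10.75, 10.56 and 10.67, which overlap. The difference was -0.19 (95% interval -0.38 to -0.0022, adjusted p = 0.08205), and scaling each array to 1 median instead of quantile normalization made it -0.57 (adjusted p = 0.0001022). The effects in HepG2 and Huh7 differed by 1.80 for SAHA (SE 0.13, adjusted p = 7.019e-13) and by 1.72 for HDAC2 siRNA (SE 0.13, adjusted p = 1.42e-11). Huh7 SAHA and Huh7 HDAC2 siRNA had the lowest CXCL16 means of the 8 groups and Huh7 DMSO the highest, and the HepG2 DMSO, SAHA and scrambled siRNA arrays overlapped in between.

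CCL2 was detected in 2 groups alone, Huh7 with scrambled siRNA and Huh7 with HDAC2 siRNA. The log2 signals were 7.17, 6.07, 6.85 and 6.62 with scrambled siRNA and 5.43, 5.39, 5.48 and 5.35 with HDAC2 siRNA. Every scrambled siRNA array was above every HDAC2 siRNA array. CCL2 fell by 1.26 (SE 0.14, adjusted p = 9.886e-09), which left 41.6%, and the difference ranged from -1.76 to -0.50 over the alternative settings. The SAHA comparisons in both lines and the siRNA comparison in HepG2 had no detected array, so no fold is given for them.

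CCL20 was detected on all 32 arrays, and its response differed by line and by treatment. In Huh7 its log2 signals were 12.27, 12.45, 12.25 and 12.23 with DMSO and 9.93, 10.05, 10.00 and 10.38 with SAHA. They were 13.40, 13.25, 13.23 and 13.14 with scrambled siRNA and 12.61, 12.69, 12.41 and 12.39 with HDAC2 siRNA. Treated arrays lay below control arrays without overlap in both cases. CCL20 fell by 2.21 with SAHA (SE 0.13, adjusted p = 1.325e-15), to 21.6%, and by 0.73 with HDAC2 siRNA (SE 0.13, adjusted p = 1.987e-05), to 60.4%.

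In HepG2 the CCL20 signals were 12.74, 12.56, 12.80 and 12.79 with DMSO and 13.60, 13.59, 13.82 and 13.54 with SAHA. They were 9.36, 9.05, 8.84 and 9.03 with scrambled siRNA and 8.33, 8.14, 7.95 and 7.60 with HDAC2 siRNA. CCL20 was thus higher with SAHA and lower with HDAC2 siRNA, again without overlap. The rise with SAHA was 0.91 (SE 0.13, adjusted p = 3.468e-07), 1.88-fold, and with HDAC2 siRNA it fell by 1.07 (SE 0.13, adjusted p = 1.001e-07), to 47.8%. The SAHA effects of the lines differed by 3.12 (SE 0.18, adjusted p = 4.6e-15). The siRNA effects were not called different, at -0.34 (95% interval -0.71 to 0.03, adjusted p = 0.1457). In the same HepG2 arrays, then, HDAC2 siRNA came with less CCL20 and more IL8. Over the 8 groups the CCL20 mean rose from HepG2 HDAC2 siRNA through HepG2 scrambled siRNA, Huh7 SAHA, Huh7 DMSO, Huh7 HDAC2 siRNA, HepG2 DMSO and Huh7 scrambled siRNA to HepG2 SAHA, and the arrays of Huh7 HDAC2 siRNA overlapped those of both its neighbours.

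Read as a group, 7 of the 9 genes were called with SAHA in Huh7, 6 lower and CXCL10 higher, where 60.6% of all genes tested were called. In HepG2, SAHA gave 2 calls, IL8 and CCL20, both higher, beside 54.5% of all genes. With HDAC2 siRNA 8 of 9 were called in Huh7, all lower, beside 45.3% of all genes, and the gene not called was CXCL3. In HepG2 it gave 3 calls, IL8 and CXCL16 higher and CCL20 lower, beside 36.6% of all genes. The median log2 difference of the 9 genes was -1.48 and -1.23 for SAHA and HDAC2 siRNA in Huh7, and 0.04 and 0.19 in HepG2, beside medians of all genes between -0.01 and 0.01. The count for SAHA in Huh7 is near the background and the count for HDAC2 siRNA there is above it. That excess is a description, since the 9 genes were chosen with earlier results of these data known. CCL2 also passed the filter of at least 4 detected arrays only through the 2 Huh7 siRNA groups. Outside those groups CXCL10 was detected on 3 arrays, fewer than the filter needs. In HepG2, 6 of the 9 genes were detected on at most 2 arrays of any group.

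Calls over all genes were split nearly evenly in direction, and 52% of the calls for SAHA in Huh7 and 49.4% of those in HepG2 were higher. Under median scaling of the arrays those splits were 39.1% and 32.3%, and the median of all genes was -0.13 and -0.17. Relative to that shift the falls of CXCL5, CCL20, CXCL16, CXCL1, IL8 and CXCL2 in Huh7 and the rises of IL8 and CCL20 in HepG2 kept their direction and call.

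**Figure D2:**
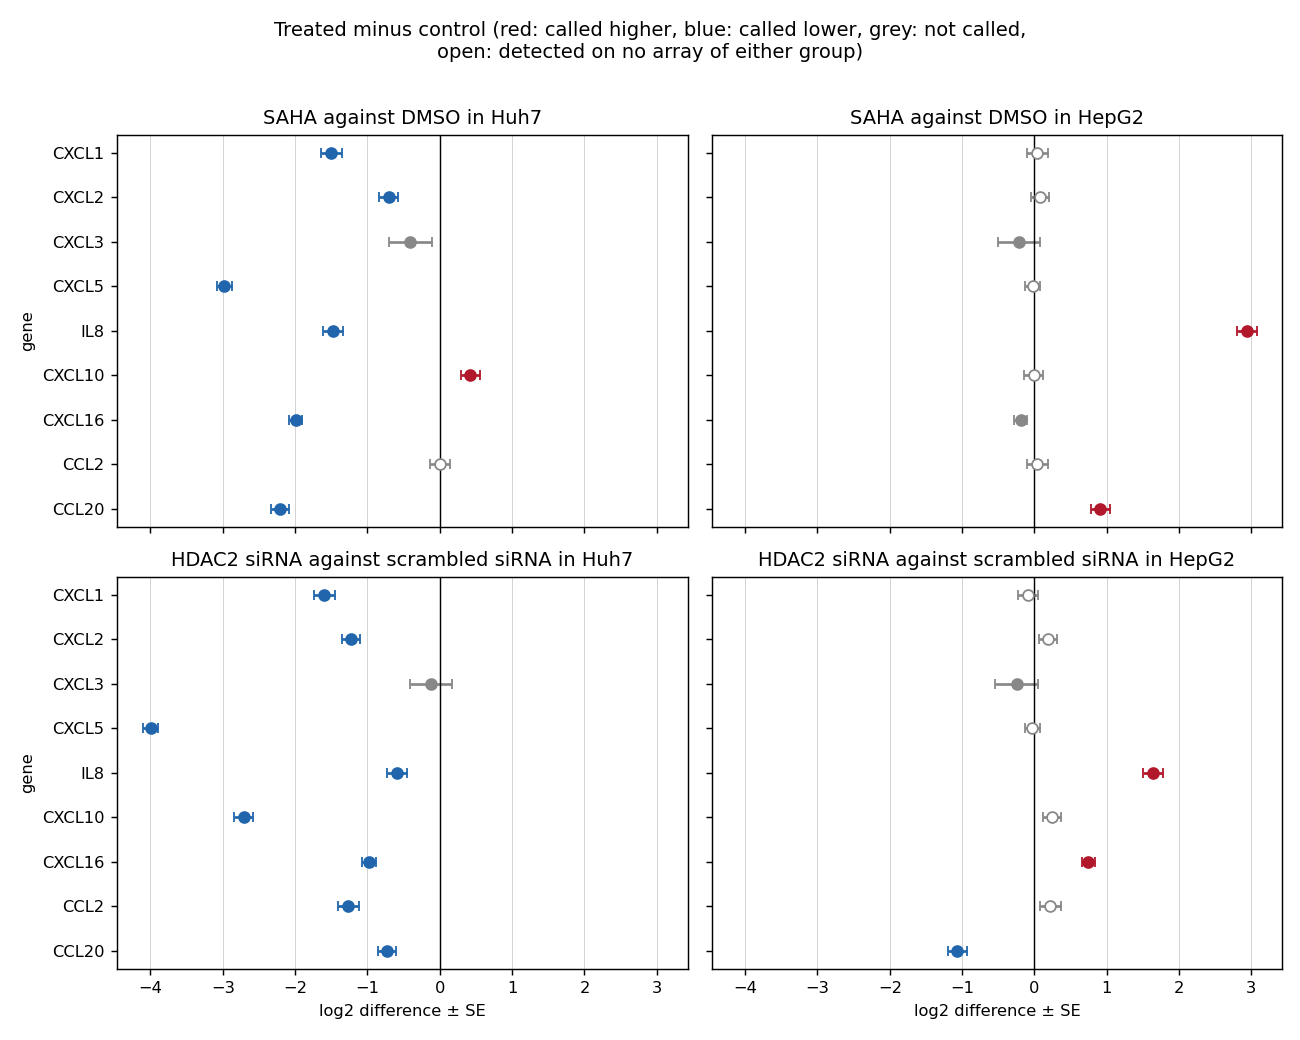
Log2 difference of treated minus control arrays (point) with its standard error (bar) for the 9 chemokine genes in the 4 treatment comparisons, each from 4 against 4 arrays, in red where called higher, blue where called lower, grey where not called, and open where no array of either group detected the probe. The left panels (Huh7) hold 6 and 8 blue points, and in the right panels (HepG2) IL8 lies at 2.93 and 1.64 while CCL20 lies at 0.91 with SAHA and -1.07 with HDAC2 siRNA.

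The lines were compared directly by the difference of their effects, HepG2 minus Huh7. For SAHA 7 of the 9 genes were called, 6 with a positive difference, beside 52.2% of all genes, and for HDAC2 siRNA 7 were called, all positive, beside 37.2%. For CXCL1, CXCL2, CXCL5, CXCL10 and CCL2 the HepG2 side had no measurable level, so these differences restate the Huh7 effect. They were 2.96 and 3.97 for CXCL5, 1.54 and 1.50 for CXCL1 and 0.78 and 1.42 for CXCL2, for SAHA and HDAC2 siRNA in turn. Their sizes were smallest without background correction, and for CXCL5 under SAHA they ranged from 1.81 to 3.31 over the alternative settings. For the genes measured in both lines, IL8 and CXCL16 differed under both treatments and CCL20 under SAHA.

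The control groups themselves differed between the lines. On the DMSO arrays 6 of the 9 genes were called, beside 60% of all genes: CXCL5, CXCL1, CXCL2, IL8 and CXCL16 were lower in HepG2 and CCL20 higher. Since CXCL5, CXCL1 and CXCL2 passed the detection filter through Huh7 arrays alone, a call of them could only be lower in HepG2. CXCL5 was at least 12.9-fold lower in HepG2 and CXCL1 at least 4.73-fold, bounds taken against the lowest detected signal after the background correction used. Over the alternative settings the log2 differences smallest in size were -2.41 for CXCL5 and -1.23 for CXCL1, smaller than these bounds. IL8 was lower by a log2 difference of -3.47 (SE 0.14, adjusted p = 4.347e-20) and CXCL16 by -1.58 (SE 0.09, adjusted p = 1.191e-15), while CCL20 was 0.42 higher (SE 0.13, adjusted p = 0.004918), a call that median scaling lost (0.30, adjusted p = 0.06277).

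On the scrambled siRNA arrays 8 of 9 were called, all lower in HepG2, beside 66.2% of all genes. CXCL1, CXCL2, CXCL5, CXCL10 and CCL2 passed the detection filter through Huh7 arrays alone, so a call of them could only be lower in HepG2. For these genes the direction is thus no result, and the count is not comparable with the share of all genes. CXCL5 was at least 74.1-fold lower, CXCL1 at least 8.07-fold, CXCL10 at least 7.72-fold, CXCL2 at least 5.13-fold and CCL2 at least 2.35-fold. These bounds hold only for the processing used, and the alternative settings gave smaller log2 differences. The smallest in size were -4.73 for CXCL5, -1.76 for CXCL1, -1.79 for CXCL10, -1.44 for CXCL2 and -0.77 for CCL2. IL8 differed by -4.46 (SE 0.14, adjusted p = 5.149e-23). CCL20, whose mean was the higher in HepG2 on the DMSO arrays, differed here by -4.18 (SE 0.13, adjusted p = 5.701e-23).

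The 2 controls of each line were also set against each other, and CCL20 differed between them in both lines, upwards in Huh7 and downwards in HepG2. In Huh7 the scrambled siRNA arrays were above the DMSO arrays for 7 of the 9 genes and below them for CXCL16, beside 44% of all genes called. Of the 7, CXCL10 and CCL2 passed the detection filter only through the Huh7 siRNA groups. No Huh7 DMSO array detected them, so a call of them could only be higher. CXCL10 was at least 8.33-fold higher and CCL2 at least 2.53-fold, and the log2 differences were 2.57 for CXCL5, 1.98 for CXCL2, 1.27 for IL8, 0.95 for CCL20 and 0.82 for CXCL1, with adjusted p-values of 2.027e-05 or less. The 2 bounds hold only for the processing used, since alternative settings gave log2 differences down to 1.71 for CXCL10 and 0.72 for CCL2. For CXCL2 the difference ranged from 0.99 to 2.36 over the alternative settings. CXCL16 was 0.89 lower (SE 0.09, adjusted p = 2.357e-09). In HepG2 only CCL20 of the 9 was called, beside 45% of all genes, and it was lower with scrambled siRNA by a difference of -3.65 (SE 0.13, adjusted p = 2.924e-20), 12.6-fold. Of all calls 52.1% were higher in Huh7 and 51% in HepG2, which median scaling made 39% and 40.7%. Control type and subset of the series cannot be told apart in these differences.

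The control baseline also bears on how the 2 treatments are read side by side. Huh7 arrays with HDAC2 siRNA still had higher mean signals than Huh7 DMSO arrays for IL8 (11.89 against 11.21), CCL20 (12.53 against 12.30) and CXCL2 (6.58 against 5.83), and also for CXCL10 (5.69 against 4.99) and CCL2 (5.42 against 4.86), which no DMSO array detected, though each was below its own scrambled siRNA control. For CXCL5 (7.66 against 9.09), CXCL1 (6.87 against 7.64) and CXCL16 (10.54 against 12.41) they were lower. These are levels set across the 2 subsets, and they were not tested.

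**Figure D3:**
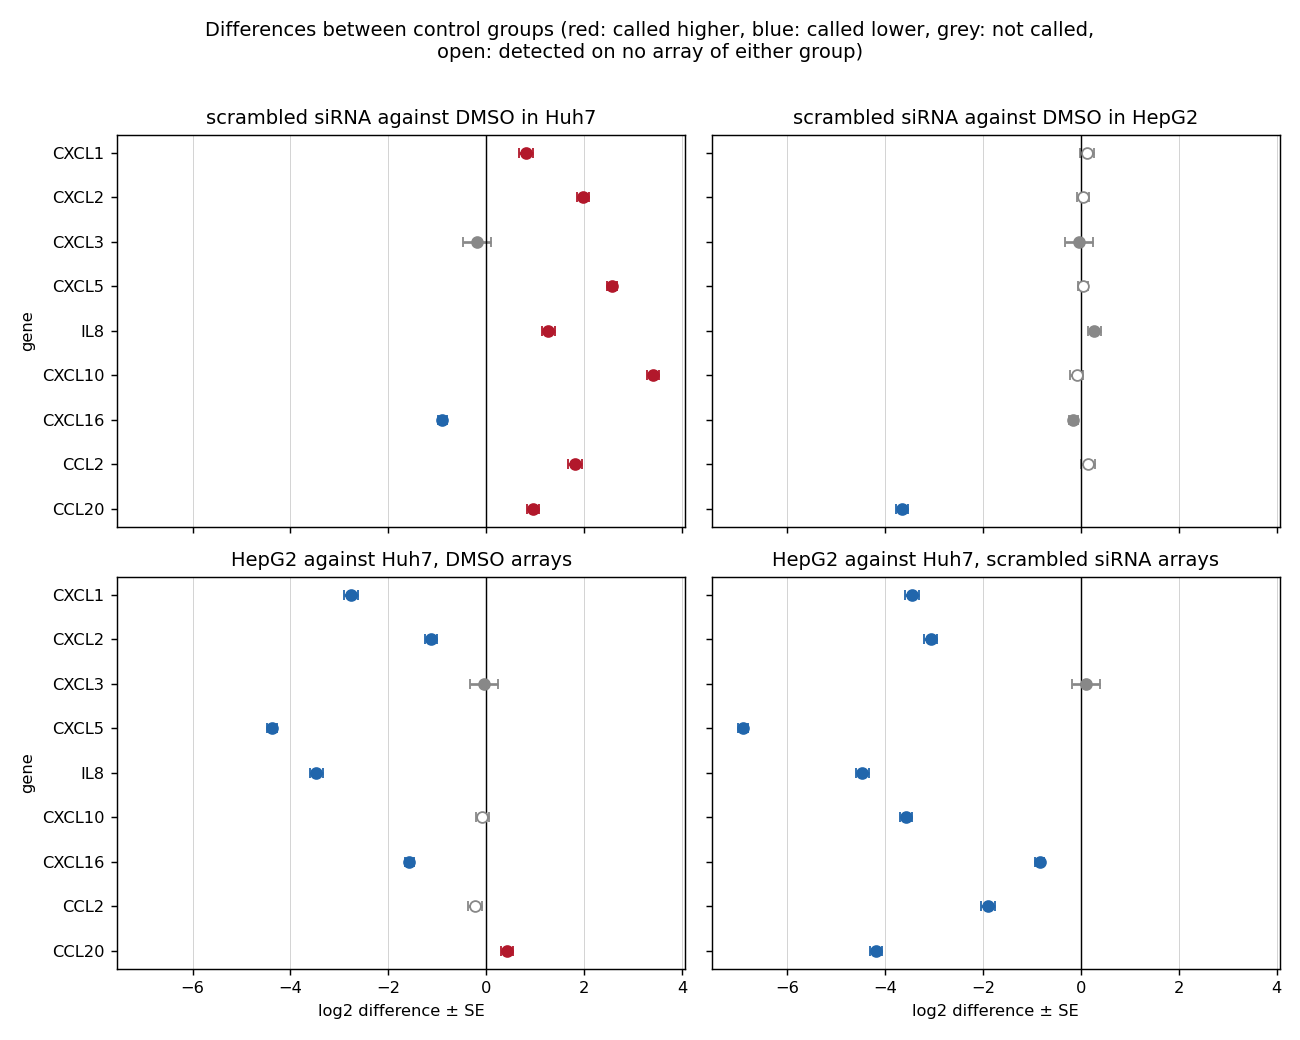
Log2 differences (point) with standard error (bar) of the 9 chemokine genes between control groups, scrambled siRNA minus DMSO in each line in the upper panels and HepG2 minus Huh7 for each control in the lower panels, from 4 against 4 arrays, coloured as called higher (red), lower (blue) or not called (grey), and open where no array of either group detected the probe. In Huh7 7 points lie right of 0 in red and CXCL16 lies left of it, CCL20 is the single called point in HepG2 at -3.65, and the lower panels lie mostly left of 0.

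The other genes of the pathway were described by lists drawn up with earlier results of these data known. Over all genes tested, 31.6% were called higher and 29.1% lower with SAHA in Huh7, 27% and 27.6% in HepG2, 22.9% and 22.4% with HDAC2 siRNA in Huh7, and 18.8% and 17.8% in HepG2, and several counts of these lists lie near those shares. Of 12 other chemokine genes tested, 4 fell and 1 rose with SAHA in Huh7. CX3CL1, a membrane-bound chemokine, fell by 4.45 (adjusted p = 4.888e-22), and CXCL6, another ELR chemokine, fell by 1.59 (adjusted p = 1.013e-13). In HepG2 with SAHA 2 rose, CCL26, at least 2.05-fold, and CCL5, at least 1.54-fold, and none fell. With HDAC2 siRNA 1 rose and 1 fell in Huh7, CXCL12 by 0.69 (adjusted p = 0.0056) and CCL23, which fell by 0.89, and 2 rose in HepG2, CX3CL1 by 0.64 (adjusted p = 0.00044) and CCL22, at least 1.30-fold. The median of this list for HDAC2 siRNA in Huh7 was -0.09, beside -1.23 for the 9 genes. Of 6 receptor genes tested, CCR6, the receptor of CCL20, rose by 0.56 with SAHA in Huh7 and by 0.65 with HDAC2 siRNA in HepG2, and no receptor gene fell in the 4 treatment comparisons. The CCR6 probe was bright, with means of 13.52 to 14.56 in the groups of these 2 rises. Whether it reads CCR6 alone was not tested.

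Genes of the NF-kappaB pathway were called in both directions. Of 26 tested, 9 rose and 11 fell with SAHA in Huh7, 4 rose and 7 fell in HepG2, and with HDAC2 siRNA 8 rose and 6 fell in Huh7 and 5 rose and 3 fell in HepG2. NFKB1, the gene of the p105 and p50 subunits, fell by 1.89 in Huh7 and by 1.22 in HepG2 with SAHA, and by 0.57 in Huh7 with HDAC2 siRNA. MYD88, the adaptor of interleukin-1 and Toll-like receptors, fell by 2.59 in Huh7 and by 1.79 in HepG2 with SAHA. The kinase gene IRAK1 fell by 3.72 and by 1.53 in the same comparisons. The relation of these genes to the chemokine genes was not tested. TNFAIP3, a feedback inhibitor, rose with HDAC2 siRNA by 0.89 in Huh7 and 0.58 in HepG2, and NFKBIZ, which encodes a nuclear cofactor, by 0.78 and 0.64.

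Cytokine and cytokine receptor genes, 18 tested, gave 2 rises and 7 falls with SAHA in Huh7, 5 and 5 in HepG2, 5 and 3 with HDAC2 siRNA in Huh7, and 4 and 1 in HepG2. TNFRSF1A, the receptor gene for tumour necrosis factor, fell by 3.05 with SAHA and fell by 0.90 with HDAC2 siRNA in Huh7. IL1R1, the interleukin-1 receptor gene, fell by 1.23 with HDAC2 siRNA in Huh7, where TNF itself was at least 1.39-fold higher. In HepG2 IL1RN, which encodes the antagonist of interleukin-1, fell by 2.71 with SAHA and by 2.07 with HDAC2 siRNA.

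Interferon genes, 24 tested, gave 6 rises and 6 falls with SAHA in Huh7, 11 and 1 in HepG2, 7 and 4 with HDAC2 siRNA in Huh7, and 6 and 2 in HepG2. CXCL10 and the interferon-induced GBP1 both fell with HDAC2 siRNA in Huh7, GBP1 by 1.06, while IFIT1 rose there by 1.49 and IFI6 by 0.77. Early response factors, 21 tested, gave 11 rises and 6 falls with SAHA in Huh7, 13 and 4 in HepG2, 8 and 5 with HDAC2 siRNA in Huh7, and 8 and 4 in HepG2. FOS, an AP-1 subunit gene, rose by 2.30 in HepG2 with SAHA, while CEBPD fell there by 1.70. CEBPB, a factor known to act on the IL8 promoter, fell by 1.37 with HDAC2 siRNA in Huh7. In that comparison JUNB rose by 1.79 and JUND by 0.76. The relation of these factors to the chemokine genes was not tested. A list of 15 genes linked to chemokine shedding, cleavage and presentation also held TIMP1 and TIMP3, which encode inhibitors of metalloproteinases. Of the 15, 5 rose and 8 fell with SAHA in Huh7, 10 and 3 in HepG2, 3 and 4 with HDAC2 siRNA in Huh7, and 6 and 1 in HepG2. DPP4, the peptidase that clips CXCL10, fell by 1.74 with SAHA in Huh7 and rose by 1.82 with SAHA in HepG2.

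**Figure D4:**
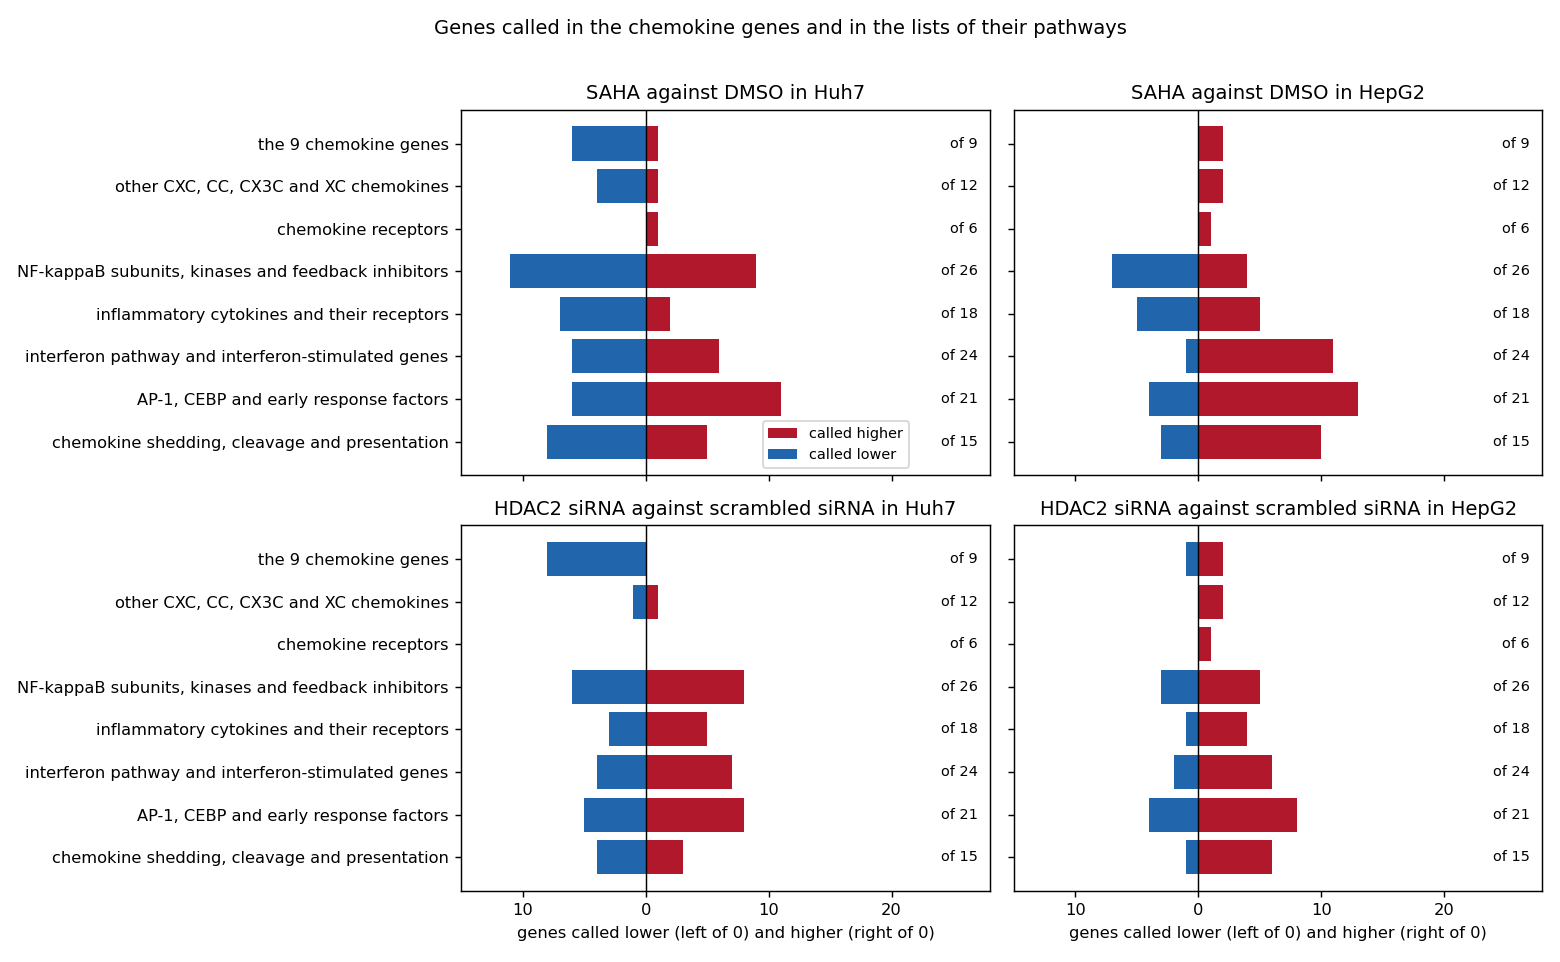
Number of genes called higher (red, right of 0) and lower (blue, left of 0) in the 4 treatment comparisons, for the 9 chemokine genes and 7 lists of related genes, with the number tested at the right edge. The 9 chemokine genes have 8 calls to the left and none to the right for HDAC2 siRNA in Huh7, while the pathway lists with more than 2 calls there have calls on both sides.

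Markers of other cells were called in some of the same comparisons, in which many genes were called. Of all genes tested, 31.6% were called higher and 29.1% lower with SAHA in Huh7, and 27% and 27.6% in HepG2. With HDAC2 siRNA the shares were 22.9% and 22.4% in Huh7 and 18.8% and 17.8% in HepG2. In HepG2 with SAHA, where IL8 and CCL20 rose, 5 of 9 leukocyte markers tested rose and none fell, among them CD3D by 4.82 and CD14 by 3.19, and CSF1R was at least 3.41-fold higher. CSF1R was detected on all 4 HepG2 SAHA arrays and elsewhere on 1 Huh7 SAHA array alone. It thus passed the detection filter through the group where it was high, so it could only rise there. The summed signal of the 15 leukocyte markers was 13756 to 14413 on those arrays and 3308 to 3816 with DMSO. PTPRC, CD2, ITGAM, FCGR3A and NKG7 were detected on no array of either group. In Huh7 with SAHA 3 of the 9 rose, 3 fell and 3 were not called, near the 60.6% of all genes called there. CD14 fell by 2.39. CSF1R was 0.59 higher but near background, with 1 SAHA array and no DMSO array that detected it. The sum was 1842 to 2148 against 5474 to 6108 with DMSO. With HDAC2 siRNA none rose and 2 fell in Huh7, and 2 rose and 1 fell in HepG2. In the siRNA subset the sum was 1491 to 1706 with scrambled siRNA and 1267 to 1376 with HDAC2 siRNA in Huh7, where CD14 fell by 1.61, and 1971 to 2185 and 2010 to 2549 in HepG2.

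Fibroblast and endothelial markers rose in 5 and fell in 1 of 9 tested with SAHA in Huh7, where 60.6% of all genes were called. With SAHA in HepG2 they rose in 3, beside 27% of all genes. Among those 3, CDH5 and VWF were detected in no group but HepG2 with SAHA. They passed the detection filter through that group alone, so they could only rise there. Their summed signal was 619.5 to 721.8 with DMSO and 965.4 to 1041 with SAHA in Huh7, and 3145 to 3526 and 4286 to 4578 in HepG2. THY1, COL3A1 and TEK were detected on no array of these 4 groups. Of 18 hepatocyte and liver tumour markers, 17 fell with SAHA in Huh7, where 6 of the 9 chemokine genes and 29.1% of all genes fell. The summed signal of these markers was 94549 to 96643 against 184050 to 191510 with DMSO. In HepG2 3 rose and 4 fell, and with HDAC2 siRNA 9 rose and 3 fell in Huh7 and 8 rose and 3 fell in HepG2. The shares of all genes called in these comparisons are those given with the leukocyte markers. The part of these markers in the chemokine results was not tested.

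The genes whose 8 group means ran most like those of a chemokine gene were found by the root mean square difference of the means, each gene centred on its own. Only genes tested were ranked, and symbols that are clone or locus identifiers were left out. For CXCL2 the nearest was EREG, the gene of the growth factor epiregulin, at 0.18 on the log2 scale. CXCL1 was nearest to RUSC2 at 0.30, CXCL10 to LDHB at 0.40, CCL2 to B3GALT2 at 0.22 and CXCL16 to MMP24 at 0.28. The genes of widest range had less close neighbours: TNFRSF11B (0.78) and OLR1 (0.80) for CXCL5, HSPB8 at 0.54 for IL8 and TOX3 at 0.81 for CCL20. Among the chemokine genes themselves, CXCL2 was the third nearest of the ranked genes to CXCL10, at 0.50. These distances are over 8 group means and are a description.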

How the data were processed

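The authors deposited probe intensities, not normalized, beside detection p-values, one per probe and array per the file headers, and a series matrix of normalized intensities, 23% of them at or below 0. GenomeStudio 2011.1 is named in the submitters' processing notes; its role, doses and times are not given in the sources read. From the deposited intensities, limma 3.58.1 in R 4.3.3 estimated each array's background from the detection p-values, removed it by normexp, added an offset of 16, quantile-normalized the 32 arrays and took log2. Probes detected (p under 0.05) on at least 4 arrays were kept (16121), and a gene was represented by its kept probe of highest mean. Of 24526 probes, 20406 bore a current symbol, 3265 an older one that was updated through RefSeq's gene table, and 855 an unmatched one. One model with 8 group means (24 residual and 5.66 prior degrees of freedom) gave 10 contrasts, each tested two-sided with eBayes and adjusted by Benjamini-Hochberg.

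A bound ("at least") lifts signals of the undetected group to the lowest signal detected on the same array, 5.22 to 5.55 on the log2 scale. Each bound holds only for the background correction and scaling used, and it carries no sampling error. In simulated data with 200 changed of 12973 genes for SAHA in Huh7, 42% of changes of 0.5, 95% of 1 and 100% of 2 were called, with 13 false calls. The real comparison called 60.6% of genes, so these rates check the fit and do not carry over to the real test. The 9 genes and all lists were chosen with earlier results of these data known. The text names the 9 genes, HDAC2, at most 4 called genes of each list per treatment comparison by smallest adjusted p, of which fewer are printed, and the nearest of up to 3 genes for each chemokine gene whose group means span at least 1; PTPRC, CD68 and the markers named as undetected were chosen after their values were seen. Promoter sequences and positions are RefSeq's, GRCh38.p14. Alternatives changed the background correction, offset, scaling, detection filter, probe choice, arrays in the fit, the replicate block and the use of the authors' normalized values, and left out each array in turn.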

Additional observations from a re-analysis of the deposited data

Results flagged for a closer look

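For 7 of the 72 sets of 4 arrays (9 genes in 8 groups) 1 array stood apart from the other 3 by Dixon's criterion for 4 values at the 95% level, which chance alone meets in about 5% of sets. For IL8 these were HepG2 SAHA replicate 4 at 10.43 (others 10.76 to 10.78), Huh7 scrambled siRNA replicate 1 at 12.68 (others 12.42) and Huh7 HDAC2 siRNA replicate 1 at 12.03 (others 11.84 to 11.86). For CXCL10 they were Huh7 SAHA replicate 4 at 5.87 (others 5.24 to 5.31), Huh7 DMSO replicate 3 at 5.09 (others 4.94 to 4.97) and HepG2 SAHA replicate 1 at 5.03 (others 4.85 to 4.87), the latter 2 among undetected signals. For CXCL3 Huh7 scrambled siRNA replicate 2 was at 5.67 (others 4.97 to 5.08).

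The difference between the lines was called, by the interaction test of limma, for 7 genes with each treatment. The differences, HepG2 effect minus Huh7 effect, were for SAHA 4.41 for IL8, 3.12 for CCL20, 2.96 for CXCL5, 1.80 for CXCL16, 1.54 for CXCL1, 0.78 for CXCL2 and -0.43 for CXCL10. For HDAC2 siRNA they were 3.97 for CXCL5, 2.95 for CXCL10, 2.23 for IL8, 1.72 for CXCL16, 1.50 for CXCL1, 1.48 for CCL2 and 1.42 for CXCL2. IL8, CXCL16 and CCL20 were measured in both lines; the other genes had no measurable level in HepG2, so a differing effect was not measured for them. The SAHA difference of CXCL10 (adjusted p = 0.04901) lost its call under 7 settings and in 10 of 16 fits without 1 array.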

How the results depend on the processing

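Of 90 differences of the 9 genes in the 10 comparisons, 57 were called. Over 559 values of these under other settings, 549 kept call and direction, 10 lost the call and 0 turned. Sizes of low genes moved by over 1.5 times, as for CCL2 between the lines on scrambled siRNA arrays (-2.43 to -0.77), CXCL5 between the lines on DMSO arrays (-5.05 to -2.41) and CXCL10 between the Huh7 controls (1.71 to 4.33). Of 317 values of differences not called, 4 gained a call, CXCL16 in 2 comparisons under median scaling, and IL8 between the HepG2 controls and CCL2 between the lines on DMSO arrays with only the arrays compared, and 32 had the other sign while staying uncalled. The lost calls were CXCL10 with SAHA in Huh7 without background correction (0.16, adjusted p = 0.0521) and with undetected signals raised (0.09, adjusted p = 0.5228), CCL20 between the lines on DMSO arrays under median scaling (0.30, adjusted p = 0.06277), and the line difference of CXCL10 under SAHA (-0.43, adjusted p = 0.04901) under 7 settings. Leaving out 1 array changed 11 of 568 called values and 2 of 296 others: the line difference of CXCL10, from -0.50 to -0.28, lost its call 10 times and CXCL10 with SAHA in Huh7 once. CXCL16 with SAHA in HepG2 was called without HepG2 DMSO replicate 1 (-0.25, adjusted p = 0.03355), and CCL20 in the siRNA line difference without HepG2 HDAC2 siRNA replicate 1 (-0.45, adjusted p = 0.04467). Probes detected on all 32 arrays leave 3 of the 9 genes, IL8, CXCL16 and CCL20, of 7255 genes: 3 were called for SAHA and for HDAC2 siRNA in Huh7, for the SAHA line difference, for both line comparisons and for the Huh7 controls, and 2 for the siRNA line difference, with 4390 of all genes in the SAHA line difference and 5583 between the lines on scrambled siRNA arrays. Between the HepG2 controls 2 of the 9 genes were called under median scaling (CXCL16 at -0.33) and 2 with only the arrays compared (IL8 at 0.27), and with only the arrays compared 2967 of all genes were called for HDAC2 siRNA in HepG2. Their causes were not tested. With the replicate number as a replicate block, the line difference of CXCL10 under SAHA lost its call (adjusted p = 0.09543) and no other call of the 9 genes changed. The labels do not say whether the numbers pair the arrays. Of 16 same-number correlations 4 were over 0.1 (-0.14 to 0.26), which cannot settle it. The block fit could not be made between controls or lines, and normalizing within 1 line gives no value between lines.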
